A study of Mus musculus with 7 samples.

Results

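Pate4, Pate9 and Pate14 are 3 of the 14 Pate genes measured among the 30406 genes shared by the count tables of 23 mice, and they were chosen from measured values, by their UMIs in secretory cells, in prostate-like cells, in the other cells and in the single libraries of a young and an old mouse. A UMI (unique molecular identifier) is a barcode that marks 1 captured RNA molecule. Levels are given as CPM, the UMIs of a gene per 1000000 UMIs of all shared genes, over the summed cells of 1 mouse and 1 cell class. A secretory cell held at least 30% of its UMIs on Svs2, Svs4, Svs5 and Svs6, which encode proteins of the seminal vesicle fluid, and a prostate-like cell held at least 0.5% on Tgm4 and Pbsn, which encode a prostate transglutaminase and probasin. Of 40342 cells kept, 9716 were secretory, 678 were prostate-like, 18 met both limits and were set apart, and 11653 were other cells of the same 21 mice, while the remaining 18277 came from the young and the old library. The levels by class set the choice of these 3 genes and are therefore described without a test. Diet, age and rapamycin were not used in the choice, and they were tested over mice.

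All mice were wild type males. The aging pool held 10 C57BL/6J mice on chow, with 2 mice of 3 months and, at both 20 and 28 months, 2 mice without and 2 with rapamycin, given for a limited time at a dose not given in the sources used here. The diet pool held 8 FVB/NJ mice of 3 months, with 2 mice on each of a purified control diet (Ctrl), a high fat diet (HF), a low protein diet (LP) and caloric restriction (CR), in which the mice were housed singly and given less food than a mouse eats freely. FVB/NJ mice on Ctrl, HF and LP, 1 of each and 3 months old, were run as single libraries, as were a young mouse of 3 months and an old mouse of 18 months of the same strain on the control diet. Sample tags marked the mice of a pool, so the mice of 1 pool were captured together.

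Depth differed between these sets, from 971402 to 14726866 UMIs per pooled mouse and from 24809486 to 46333394 UMIs per single library. The tissue of the young and the old mouse is labelled as seminal vesicle, but Svs5 stood at 3.24 CPM over both, no cell met either class limit, and all 14 epididymis markers were detected, with summed levels of 64723.8 and 105949 CPM. Between 1 and 20 cell barcodes were shared by 2 separate libraries, and 0 by mice of 1 pool. The class names held against markers that had not set the limits. The 6 secretory markers summed to 49966.3 to 74702.1 CPM in secretory cells of the 3 sets and to 396.7 to 1883 CPM in prostate-like cells. Without Spink1, the prostate markers summed to 7859 and 16995.5 CPM in prostate-like cells of the aging and the diet pool, against 216.2 and 67.9 CPM in secretory cells. Spink1, a trypsin inhibitor listed with them, was high in secretory cells (12803.7 to 18988.1 CPM), and Sbp was near 0 in prostate-like cells of the aging pool (0.926 CPM).

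Pate genes encode small secreted or membrane-bound proteins of the Ly6/uPAR family, whose shape, the three-finger fold, is held by paired cysteines. They are known from male reproductive tissues, where members coat sperm or act in seminal fluid. Pate4 is also known as seminal vesicle secretion 7 (SVS7), a protein of the mouse seminal vesicle that binds to sperm.

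The coding sequences are shown because the cysteine codons carry the family's mark. UMIs were counted from 3′ ends, so likeness of coding sequences does not show how well the genes were counted apart. On GRCm38 the 14 genes lie on chromosome 9 within 1073 kb. Pate4 (ENSMUSG00000032099) is at chr9:35607093-35611941 on the minus strand, within the span of Pate2 on the other strand. Pate9 (ENSMUSG00000074448) is at chr9:36532397-36541963 and Pate14 (ENSMUSG00000070313) at chr9:36635754-36643376, both on the minus strand, where they overlap the annotated genes Gm27218 and Gm49367. How reads of overlapping genes were assigned is not given in the sources used here. Each has 3 coding exons. The bases between the start and the stop codon follow, 5′ to 3′ on the coding strand, from the GENCODE transcripts of GRCm38, with cysteine codons in capitals.
Pate4: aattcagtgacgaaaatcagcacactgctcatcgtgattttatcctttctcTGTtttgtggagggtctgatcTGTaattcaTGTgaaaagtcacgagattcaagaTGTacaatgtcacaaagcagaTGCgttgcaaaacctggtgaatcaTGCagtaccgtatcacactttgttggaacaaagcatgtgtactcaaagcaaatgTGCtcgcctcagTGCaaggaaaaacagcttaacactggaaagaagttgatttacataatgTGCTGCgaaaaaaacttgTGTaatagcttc
Pate9: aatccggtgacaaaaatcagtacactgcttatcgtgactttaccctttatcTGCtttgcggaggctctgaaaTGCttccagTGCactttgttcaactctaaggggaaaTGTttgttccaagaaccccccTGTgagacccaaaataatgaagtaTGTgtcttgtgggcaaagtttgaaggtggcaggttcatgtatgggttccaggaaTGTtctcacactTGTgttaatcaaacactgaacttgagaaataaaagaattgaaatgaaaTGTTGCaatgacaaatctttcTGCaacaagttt
Pate14: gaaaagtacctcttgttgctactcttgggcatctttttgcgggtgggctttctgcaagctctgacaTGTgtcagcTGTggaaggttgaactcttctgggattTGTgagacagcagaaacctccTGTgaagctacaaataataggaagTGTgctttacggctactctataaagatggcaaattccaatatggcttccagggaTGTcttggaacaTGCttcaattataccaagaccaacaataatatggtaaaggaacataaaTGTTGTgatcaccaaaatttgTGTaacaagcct
The printed runs hold 294, 300 and 294 bases. Pate4 and Pate9 had 11 cysteine codons each and Pate14 had 10. All 14 Pate genes ended in the same way as these runs, with a pair of cysteine codons, then 4 or 5 other codons, then a cysteine codon followed by a codon for asparagine. Pate4 and Pate9 were each other's closest relative in the family, with 63.4% of the bases of the longer coding sequence identical, while Pate14 was closer to Pate11 (66.7%) than to Pate9 (60.5%) or Pate4 (55.3%). The 91 pairs of the family ran from 49.5% to 89.3% with a median of 53.9%. Closeness in sequence therefore did not follow the classes described next, where Pate4 and Pate14 were high in the same cells and Pate9 in others.

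Pate4 and Pate14 were among the most abundant RNAs of the secretory cells. Over the 21 mice with such cells, Pate4 stood at 21805.9 CPM in the lowest mouse, 37620.8 CPM at the median and 50585.7 CPM in the highest. Pate14 stood at 7944 CPM in the lowest mouse, 32896.8 CPM at the median and 49803.9 CPM in the highest. A median of 37620.8 CPM means that Pate4 alone gave 3.76% of the UMIs of a secretory cell population. Ranked among all shared genes, Pate4 was placed 4 to 7 in each mouse (median 5) and Pate14 was placed 5 to 9 (median 6). Each UMI counts 1 molecule from its 3′ end, so the levels of different genes were compared without division by length.

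Pate9 was far lower in the same cells. It stood at 14.9 CPM in the lowest mouse, 36.8 CPM at the median and 70.5 CPM in the highest, and its rank among genes ran from 484 to 2409. The 3 single libraries of the diets, which hold 8492 of the 9716 secretory cells, gave Pate4 at 48958.3 CPM (Ctrl), 48483.8 CPM (HF) and 50585.7 CPM (LP). Pate14 there stood at 44836.8, 44615.3 and 49803.9 CPM in the same order. All 3 libraries lay above each of the 18 pooled mice for both genes, and the share of all genes that did so is not given here. The single libraries were captured and counted apart from the pools. Their median depths per secretory cell were 10772.5 to 15359.5 UMIs, against 20172 to 59165.5 in the pools.

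Most UMIs of Pate4 and Pate14 came from secretory cells. For Pate4 the share was 96.1% in the aging pool, 91.9% in the diet pool and 99.8% in the single libraries of the diets, and for Pate14 it was 97.3%, 97.7% and 99.9%. Pate9 had 91.2% of its UMIs in prostate-like cells of the aging pool and 83.7% in those of the diet pool. In the single libraries of the diets only 11 prostate-like cells were present, and 97.8% of the Pate9 UMIs came from secretory cells, at 28.5 to 37.4 CPM. Tgm4 and Pbsn stood at 0.0343 and 0.0515 CPM in those secretory cells, so the low Pate9 level was measured there almost without RNA of the genes that define the prostate-like class.

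The organs around the gland were trimmed away before dissociation, and 678 cells met the prostate-like limit. The study's staining found TGM4 protein and Tgm4 RNA at a modest level across the epithelium of the gland. It found no group of high-expressing cells there. The study proposes carry-over from adhering prostate as the more likely source, while also listing reasons for cells of the gland itself. Their origin was not tested here. The study also lists Pate9 among the markers of these cells. In these cells Pate9 was the highest Pate gene in every mouse with at least 10 such cells. In the 7 such mice of the aging pool it stood at 2110 CPM in the lowest, 3064 CPM at the median and 4970 CPM in the highest. In the 6 such mice of the diet pool the lowest was 1138 CPM, the median 1588 CPM and the highest 3503 CPM. Its rank among all genes was 19 to 148 over the 13 mice (median 85). Pate14 in the same cells ran from 130.1 to 3173 CPM (median 482.8) and Pate4 from 100.5 to 1802 CPM (median 289.6). Pate9 thus came first here, while in secretory cells it was far below both. Over the summed cells of the aging pool Pate4 lay above Pate14 (1047 against 779.7 CPM). In the diet pool it lay below (199.9 against 579.6 CPM). In the 11 prostate-like cells of the single libraries, from 2 mice with 4 and 7 cells, Pate9 stood at 1891 CPM and Pate14 at 7732 CPM, too few cells to enter the ranges above.

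**Figure D1:**
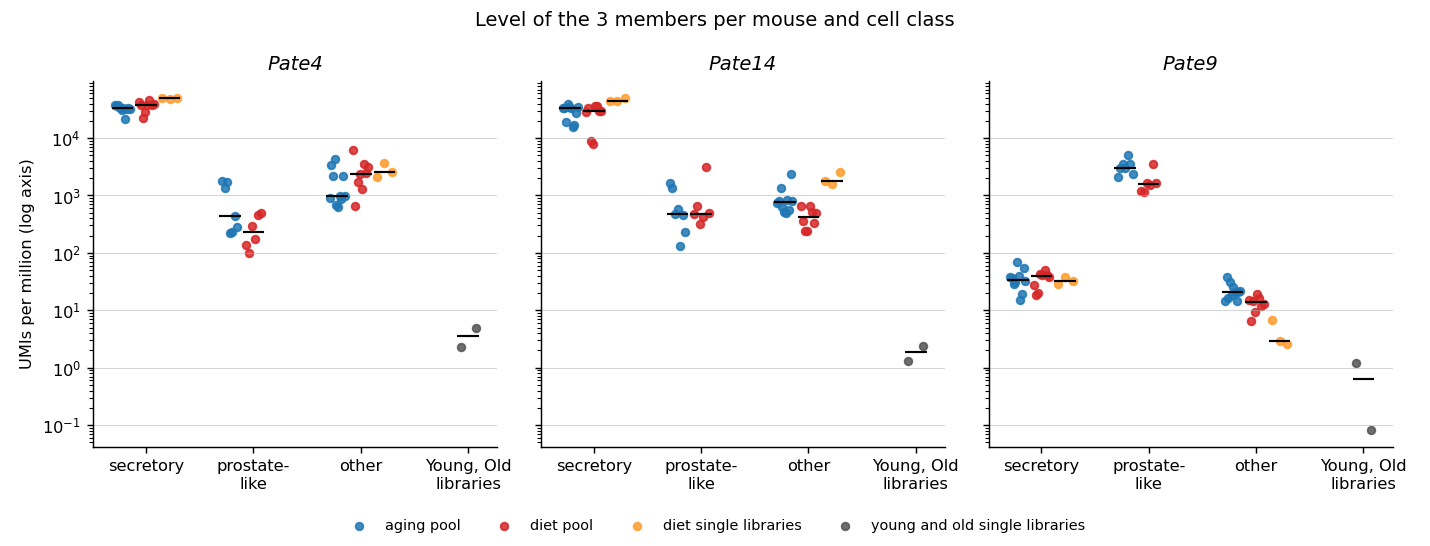
CPM (log axis) of Pate4, Pate14 and Pate9, 1 point per mouse with at least 10 cells of the class and a bar at the median of each set of libraries, with the young and the old library apart. Pate4 and Pate14 are at their highest in secretory cells, with medians of 37620.8 and 32896.8 CPM over 21 mice, and Pate9 in prostate-like cells, with a median of 2366 CPM over 13 mice.

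The 64 cells with 30 to 35% of UMIs on the Svs genes, just inside the secretory limit, held Pate4 at 59579.4 CPM and Pate14 at 6015 CPM, and the 59 cells with 25 to 30%, just outside, held 37276.4 and 7499 CPM. At the prostate limit, the 33 cells with 0.5 to 0.6% on Tgm4 and Pbsn held Pate9 at 634.1 CPM and the 23 cells with 0.4 to 0.5% held 573.9 CPM. Summed over the sets, Pate4 just outside the secretory limit was thus near its median in the class, while Pate14 was far lower. By set, the cells with 25 to 30% held Pate4 at 2.37% of UMIs (aging pool), 4.88% (diet pool) and 3.93% (single libraries). Secretory cells of the same sets held 3.43%, 3.75% and 4.93%, so Pate4 was higher just outside the limit in the diet pool only.

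Pate4 and Pate14 did not change together along the share of Svs RNA. Between 20 and 35% of UMIs on the Svs genes, Pate4 took 2.37 to 4.91% of UMIs in the aging pool, 4.88 to 7.61% in the diet pool and 3.93 to 6.09% in the single libraries of the diets. Pate14 in the same bins took 0.893 to 1.28%, 0.191 to 0.546% and 1.24 to 2.17%. For each 100 UMIs of Pate4 there were 18.5 to 37.7 UMIs of Pate14 in the aging pool, 2.8 to 11.2 in the diet pool and 29.1 to 35.6 in the single libraries, against 99.6, 82.5 and 122.9 in cells with 45 to 60% on the Svs genes. These cells are few, 17 to 29 in each bin, and their median depth of 1504 to 20543 UMIs was below that of the bin from 45 to 60% in each set (12698 to 50444). The plot of bins shows Pate4 near its full level at a lower Svs share than Pate14 in all 3 sets. Svs2, Svs4, Svs5 and Svs6 define the horizontal axis, and no test was made of this pattern.

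**Figure D2:**
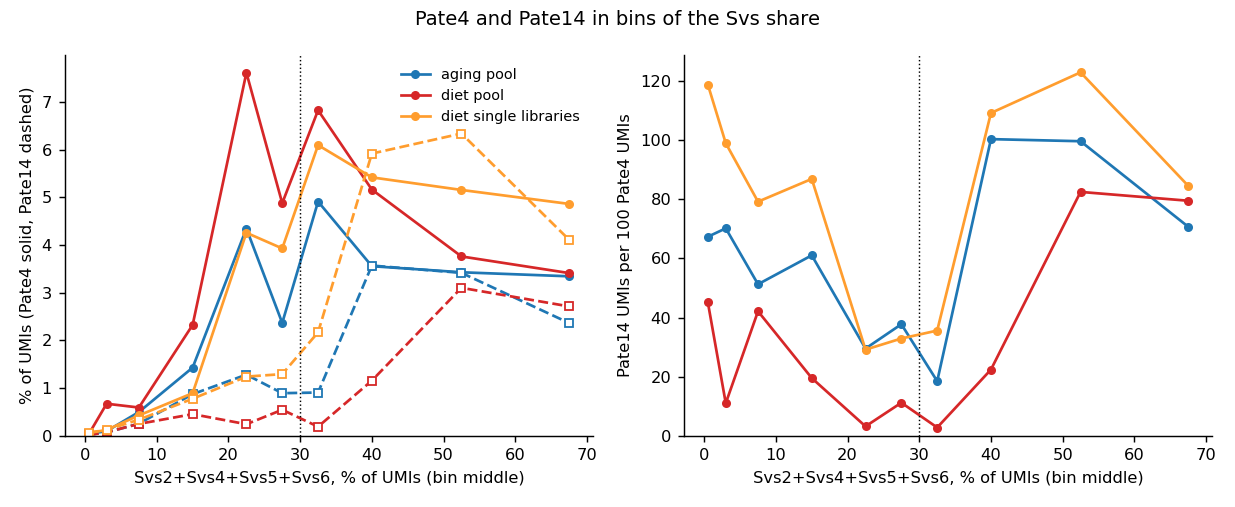
Left, share of UMIs on Pate4 (solid) and Pate14 (dashed) in cells binned by the share of their UMIs on Svs2, Svs4, Svs5 and Svs6; right, Pate14 UMIs per 100 Pate4 UMIs; colours give the sets of libraries, the dotted line is the secretory limit of 30%, and the 5 cells of the diet pool above 75% are left out. In the bin from 30 to 35% the ratio is 18.5 in the aging pool, 2.8 in the diet pool and 35.6 in the single libraries, below its value in each bin from 45% up.

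Within the secretory class the single cells differed more in Pate14 than in Pate4. The coefficient of variation of the Pate14 share over cells was 0.32 to 0.618 in the mice of the aging pool and 0.418 to 0.79 in the 6 mice of the diet pool that were not restricted. For Pate4 it was 0.212 to 0.483 and 0.337 to 0.524. In the deep libraries of the aging pool every secretory cell held at least 1 UMI of both genes. After each cell had been thinned to 1000 UMIs, Pate4 was found in 99.9% of secretory cells of the aging pool and 100% of those of the diet pool, and Pate14 in 97.2% and 88.9% (97.5% in the diet pool before thinning). Pate9 was found in 86.6% and 72.1% of prostate-like cells, against 95.9% and 88.0% before thinning, at median depths of 16283 and 4539 UMIs.

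Shares of this kind need the background of RNA that was free in the droplets. Fibroblasts, which should lack all 3 genes, gave a Pate4 UMI in 31.7% and 18.8% of thinned cells of the aging and the diet pool, a Pate14 UMI in 29.9% and 15.6%, and a Pate9 UMI in 0.613% and 0.724% (median depths before thinning 3817.5 and 2533 UMIs). In the single libraries of the diets, where 429 of 964 fibroblasts were too shallow to thin, the Pate4 share was 62.4%. A share of cells with Pate4 or Pate14 at or below those values was read as background. Prostate-like cells gave a Pate4 UMI in 30.6% and 27.9% and a Pate14 UMI in 32.8% and 32.3%. For Pate4 in the aging pool the share in prostate-like cells was below that in fibroblasts, but the mean was 1.04 UMIs per thinned cell against 0.466 (1047 against 418.1 CPM before thinning), so share and level gave opposite orders and none was read from them. The prostate-like Pate14 rested in part on few cells in both pools. In the diet pool 3 of 299 cells, with Pate14 at 1% of UMIs or more, held 43.3% of its UMIs. In the aging pool, where age was tested, such cells were 3 of 368 and held 26.0%.

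Among the other cells, Pate4 stood at 639.6 CPM in the lowest of 21 mice, 2201 CPM at the median and 6085 CPM in the highest, Pate14 at 239.1, 646.5 and 2560 CPM, and Pate9 at 2.59, 15.3 and 38.5 CPM. A small number of cells held much of this Pate4. Cells with Pate4 at 1% of UMIs or more were 65 in the aging pool, 134 in the diet pool and 86 in the single libraries of the diets, and they held 61.0%, 85.6% and 46.1% of the Pate4 UMIs of other cells. By mouse this share ran from 5.7 to 86.5% in the aging pool (median 27.1%), from 39.3 to 92.3% in the diet pool (median 82.3%) and from 13.1 to 66.1% in the single libraries, so the summed value of the aging pool rests on the 4 mice with 60.1 to 86.5%. They came from all 21 mice, from 1 to 35 cells in each.

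Summed over mice, these cells held less Pate14 for their Pate4 than the rest, which did not hold in every mouse. They held 31.6, 6.92 and 33.7 UMIs of Pate14 per 100 UMIs of Pate4 in the aging pool, the diet pool and the single libraries, while the remaining other cells held 76.3, 60.1 and 98.8 and secretory cells 91.7, 71.8 and 93.8. By mouse the ratio in these cells ran from 3.78 to 120.5 in the aging pool (median 48.7), where it lay above that of the rest in 4 of 10 mice, and the lowest values came from the 2 mice with the most such cells (7.83 and 3.78). It ran from 3.58 to 44.8 in the diet pool and from 22.4 to 84.6 in the single libraries, below the rest in all 8 and all 3 mice. Their median share of UMIs on the 4 Svs genes was 19.0%, 16.0% and 20.7%, below the limit of 30%, and their median depth was 3871, 2108 and 1480 UMIs. They also held Cd52 at 4776, 4234 and 2268 CPM, a gene of a small surface protein that is used as a leukocyte marker and is also made by epithelium of the male tract. The 6 other leukocyte markers summed to 133.5 to 279.7 CPM in them, against 259.3 to 1179 CPM in the remaining other cells.

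Cd52 was high in the secretory cells themselves (3509 to 5120 CPM), where the 6 other leukocyte markers summed to 1.32 to 15.5 CPM. It therefore changed the Pate4 level of cells gated as leukocytes. With all 7 markers the gated cells held Pate4 at 2490 CPM in the aging pool, 9617 CPM in the diet pool and 12771.3 CPM in the single libraries. With a gate that leaves out Cd52, added after the data had been seen, they held 912.0, 1028 and 1412 CPM over 1632, 673 and 143 cells. Fibroblasts stood at 418.1, 315.0 and 1471 CPM, endothelial cells at 426.3, 336.4 and 1007 CPM, and basal cells at 1476, 664.1 and 2234 CPM. Pate14 per 100 Pate4 in fibroblasts was 84.96, 65.4 and 101.9, close to the values of secretory cells of the same set.

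The other Pate genes split between the tissues. Of the 14 genes, Pate3, Pate5, Pate10 and Pate13 had more than 99% of their UMIs in the young and the old library, and 5 genes, among them the 3 members with Pate7 and Pate8, had less than 1% there. Pate1, Pate2, Pate6 and Pate12 lay between, at 91.2, 91.7, 69.0 and 61.5%, and Pate11 had no UMI in any cell. The choice of the 3 members used their UMIs in these libraries, so their place in the split is a description only. The share of all genes in each group is not given here. In the young and the old library the members stood at 2.34 CPM (exact 95% Poisson interval 1.78 to 3.02) and 4.92 CPM (4.23 to 5.70) for Pate4, 1.21 CPM (0.816 to 1.73) and 0.0821 CPM (0.0169 to 0.24) for Pate9, and 1.33 CPM (0.916 to 1.87) and 2.35 CPM (1.88 to 2.91) for Pate14. These intervals cover counting error only, and the libraries hold 1 mouse each, so the ages were not compared.

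In those libraries Pate6 led the family, with 91369 UMIs (3683 CPM) in the young and 106819 UMIs (2923 CPM) in the old mouse, followed by Pate5 with 19888 and 73864 UMIs and Pate13 with 4901 and 17431 UMIs. Cells gated by epididymis markers held 94.0% and 99.2% of the Pate6 UMIs and 99.4% and 99.6% of those of Pate5. Pate1 was spread differently, with 4.06% and 15.0% of its UMIs in such cells. Pate6 was also the highest Pate gene after Pate4 and Pate14 in secretory cells, at 952.2, 241.7 and 412.3 CPM over the cells of the aging pool, the diet pool and the single libraries of the diets. Pate8 stood at 32.9, 65.6 and 30.0 CPM there, and Pate7 at 3.57 and 5.86 CPM in the pools. Pate7 had no UMI in any single library. For 8492 secretory cells this count of 0 allows up to 0.0257 CPM (3 counts), a bound for counting error only. The single libraries were counted with another Cell Ranger version and another symbol for Pate7, and the part of this was not tested. The place of Pate7 in the split between the tissues is therefore not read.

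**Figure D3:**
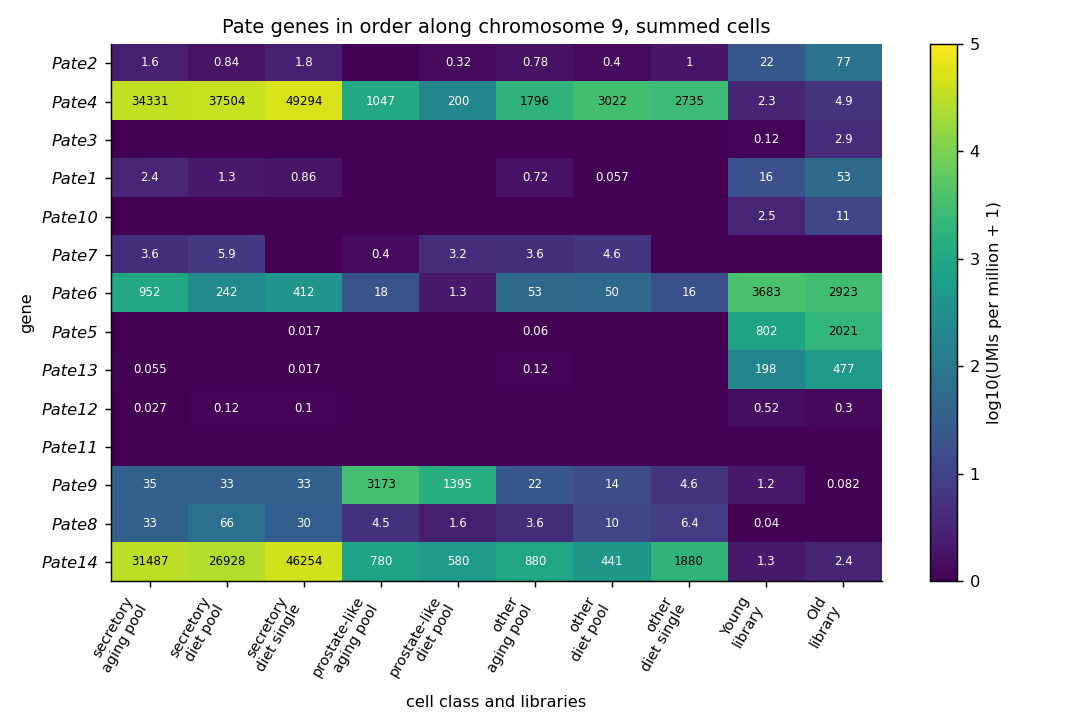
Level of the 14 Pate genes, in their order along chromosome 9, over the summed cells of each class and set of libraries, with colour for log10 of CPM plus 1 and the CPM written in the cell where above 0. Pate4 and Pate14 fill the secretory columns, Pate9 the prostate-like columns (3173 and 1395 CPM), and Pate6, Pate5 and Pate13 the young and the old library.

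Caloric restriction was the diet under which both major members were lower in secretory cells. Pate4 stood at 22586.0 and 28076.5 CPM in the 2 restricted mice, against 43257.8, 37648.8 and 48958.3 CPM in the 3 mice on the control diet. Pate14 stood at 8948 and 7944 CPM in the restricted mice, against 28928.5, 33596.6 and 44836.8 CPM. For both genes the restricted mice lay below every other mouse of the diet comparison, and the share of all genes that did so is not given here. Pate14 was also lower relative to Pate4, at 39.6 and 28.3 UMIs per 100 UMIs of Pate4 in the restricted mice against 66.9 to 93.9 in the 6 others of the pool.

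In edgeR's quasi-likelihood test over 7131 genes and 11 mice, with pool or single library as a block, Pate4 fell by 1.16 on the log2 scale (SE 0.15, Benjamini-Hochberg adjusted p = 0.000169, 2.24-fold lower) and Pate14 fell by 2.36 (SE 0.19, adjusted p = 4.51e-07, 5.13-fold lower). Both of these calls are read against a background of 1.64% of all genes tested (117 genes, 80 lower and 37 higher, or 1.12% and 0.519%), and 14% of genes had an unadjusted p under 0.05. Pate9 differed by -0.59 (SE 0.28, adjusted p = 0.342), with 20.4 and 43.1 CPM in the restricted mice against 27.3, 18.3 and 28.5 CPM on the control diet, so its groups overlapped. The sign of that fitted value, which is scaled by TMM and blocked by set, is opposite to the order of these unscaled levels. Of the 6 Pate genes that passed the filter on low counts, 2 fell and 0 rose. Pate8 differed by -2.37 (SE 0.69, adjusted p = 0.0968), Pate7 by 1.85 (SE 0.61, adjusted p = 0.155) and Pate6 by 0.18 (SE 0.19, adjusted p = 0.748). The median over these 6 genes was -0.88, against 0.00476 over all genes.

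The fold depended on the scaling, and the cause of this was not tested. The TMM factors were 1.39 and 1.72 in the restricted mice and 1.11 and 1.14 in the control mice of the pool. With library sizes counted without the Svs genes, the median of all genes moved to 0.48, 624 genes rose and 44 fell, and Pate4 and Pate14 still fell, by 0.64 (adjusted p = 0.00754) and 1.85, or -1.12 and -2.33 relative to that median. Pate9 then differed by -0.10 (adjusted p = 0.841), against -0.59 with TMM. Both calls were also made in the diet pool alone. There were 2 restricted mice, with 89 and 17 secretory cells, and both came from the pool, so nothing is known of restriction in the single libraries.

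Other products of the secretory cells were also lower under restriction. Among 12 seminal vesicle products tested, 8 fell under restriction and none rose, with a median of -2.02. Sva fell by 5.12 (adjusted p = 4.84e-10), Spink1 by 3.55, Svs3a by 3.47, Svs1 by 2.43, Dnase2b by 2.14, Svs6 by 2.03, Svs3b by 2.01 and Spinkl by 1.59. Svs4 did not pass (0.22, adjusted p = 0.516), and its share of UMIs was 23.2 and 24.0% in the restricted mice against 13.5 to 15.1% in the other 6 mice of the pool. The median Svs share per cell, 54.9 and 60.9%, was in 1 mouse below and in the other above the range of the rest, 56.6 to 59.7%.

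Secretory cells with little Pate14 were frequent in the restricted mice. Pate14 was under 1% of UMIs in 59.6 and 76.5% of their secretory cells, against 5.26 to 24.2% in the 6 other mice of the pool. For Pate4 the same share was 7.87 and 5.88% against 0 to 1.32%. Median depth per cell (31525 and 22242 UMIs, against 20172 to 43505.5), the mitochondrial share (0.944 and 1.08%, against 0.885 to 1.41%) and the summed basal markers (232.5 and 167.0 CPM, against 67.9 to 245.3 CPM) overlapped between restricted and other mice. The summed epididymis markers did not, at 92.8 and 48.5 CPM against 123.2 to 265.8 CPM, and 1 restricted mouse lay above the rest for smooth muscle markers (76.3 CPM against at most 27.5) and the other for Schwann markers (137.3 CPM against at most 42.1). The part of these in the result was not tested. Among the other Ly6/uPAR genes, 7 of 31 passed the filter, of which Plaur, the urokinase receptor, rose by 1.12 (adjusted p = 0.0421) and none fell. Of 5 prostate products tested, 2 fell, Tgm4 (-2.54, adjusted p = 0.0319) and Spink1, and of 5 androgen response genes none passed.

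**Figure D4:**
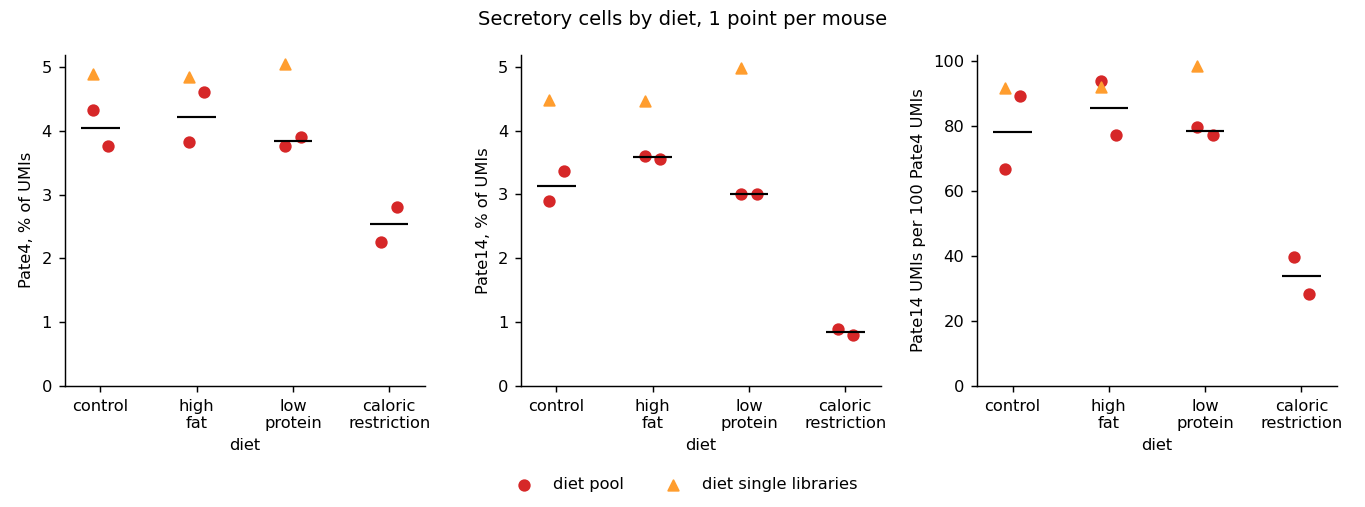
Secretory cells of the diet pool (circles) and of the single libraries of the diets (triangles), 1 point per mouse, with Pate4 and Pate14 as percent of UMIs and Pate14 UMIs per 100 Pate4 UMIs by diet; bars are means over the 2 pooled mice of a diet. The 2 restricted mice sit at 0.895 and 0.794% for Pate14, below every other mouse, and at 39.6 and 28.3 in the ratio.

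High fat and low protein diets gave no call for a member. edgeR called 0 of 7131 genes for either diet, a background of 0%, with 108 genes (1.51%) and 159 genes (2.23%) at an unadjusted p under 0.05, and DESeq2 also called 0. Under HF, Pate4 differed by 0.26 (SE 0.12), Pate14 by 0.36 (SE 0.15) and Pate9 by 0.83 (SE 0.19), each with an adjusted p of 1.00. Pate9 stood at 41.4, 49.9 and 37.4 CPM in the 3 HF mice, each above the 3 control mice. The share of all genes in that order is not given here. Its unadjusted p of 0.000497 was the second lowest of all genes in that comparison, and its adjusted p fell to 0.0498 only when no filter on low counts was used. Under LP, Pate4 differed by 0.05 (SE 0.12), Pate14 by 0.10 (SE 0.15) and Pate9 by 0.50 (SE 0.20), again with adjusted p of 1.00.

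Age and rapamycin gave no call for a member in secretory cells. The fit over 10 mice and 7165 genes called 5 genes per month of age (0.0698%, with 0.014% higher and 0.0558% lower) and 3 genes for rapamycin (0.0419%, all higher), where 5.68% and 6.55% had an unadjusted p under 0.05. Pate4 differed by -0.02 per month (SE 0.01, adjusted p = 0.95), Pate14 by -0.04 (SE 0.01, adjusted p = 0.661) and Pate9 by -0.04 (SE 0.01, adjusted p = 0.522). Pate14 stood at 32892.7 and 33836.8 CPM at 3 months, and without rapamycin at 18692.4 and 38522.8 CPM at 20 months and 15886.5 and 17025.4 CPM at 28 months. With rapamycin it stood at 34403.8 and 32896.8 CPM at 20 months and 27154.3 and 34457.6 CPM at 28 months. The 3 lowest mice were thus untreated mice of 20 or 28 months, but 1 untreated mouse of 20 months had the highest value of the pool.

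For rapamycin against none, Pate14 differed by 0.58 (SE 0.24, adjusted p = 0.718), Pate9 by 1.02 (SE 0.25, adjusted p = 0.342) and Pate4 by 0.05 (SE 0.19, adjusted p = 1.00). Pate9 stood at 70.5 and 39.6 CPM with rapamycin at 20 months, against 28.4 and 31.7 CPM without, and at 53.8 and 31.8 CPM at 28 months, against 14.9 and 19.3 CPM without. At each age its treated mice lay above the untreated ones, an order whose share over all genes is not given here. Pbsn, which defines the prostate-like class, moved with it in the same secretory cells, with a rise of 2.63 under rapamycin (adjusted p = 0.000783) and a fall of 0.10 per month (adjusted p = 0.0324), and its part in the Pate9 values was not tested. Of the 7 Pate genes that passed the filter, edgeR called 0 in either contrast, with 3 for age (Pate8, Pate9 and Pate14) and 2 for rapamycin (Pate9 and Pate14) at an unadjusted p under 0.05.

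In prostate-like cells no member passed the test for age. Pate14 stood at 1651 and 1362 CPM in the 2 mice of 3 months, at 482.8 CPM in the untreated and 578.5 CPM in the treated mouse of 20 months, and at 130.1 CPM in the untreated and 452.6 and 233.8 CPM in the treated mice of 28 months. Both young mice of this pool lay above all 5 older ones, and the share of the genes tested that did so is not given here. In the fit over 7 mice and 8140 genes it differed by -0.12 per month (SE 0.02, adjusted p = 0.0555), the lowest unadjusted p of all genes (6.82e-06). edgeR called 0 genes there, a background of 0%, with 395 (4.85%) at an unadjusted p under 0.05, and DESeq2 called 22, Pate14 among them (adjusted p = 5.09e-11). Pate9 differed by 0.03 per month (SE 0.01, adjusted p = 1.00).

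The values of seminal vesicle products had the sign of Pate14 in these cells. Of 12 tested, 0 passed and all 12 were lower per month of age, with a median of -0.08, and Pate4 differed by -0.05 (SE 0.03, adjusted p = 1.00). Their part in the Pate14 values was not tested. The call for Pate14 changed with the processing, since it passed with DESeq2 size factors (adjusted p = 0.04995), without a filter on low counts, without a mitochondrial limit (0.00362) and without any 1 of 4 mice, and it had an adjusted p of up to 1.00 under others. For rapamycin 0 genes were called by edgeR (270, or 3.32%, at an unadjusted p under 0.05) and 1 by DESeq2. Pate9 differed by -0.50 (SE 0.22), Pate14 by 0.71 (SE 0.32) and Pate4 by -1.44 (SE 0.58), each with an adjusted p of 1.00.

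**Figure D5:**
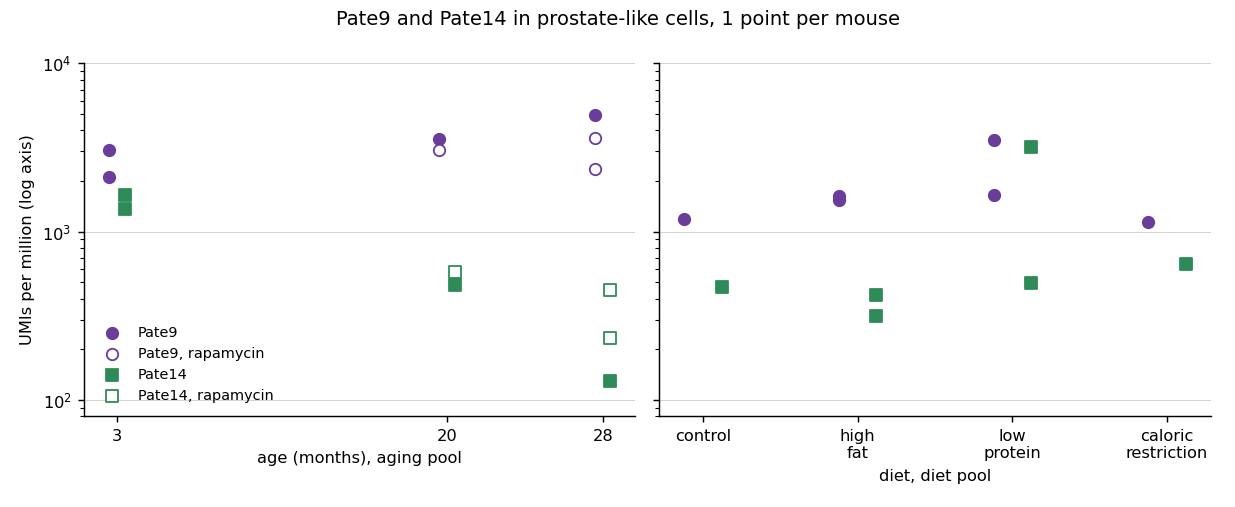
CPM (log axis) of Pate9 (circles) and Pate14 (squares) in prostate-like cells, 1 point per mouse with at least 10 such cells, by age in the aging pool (open symbols with rapamycin) and by diet in the diet pool. In the aging pool, Pate14 is at 1651 and 1362 CPM in the mice of 3 months and between 130.1 and 578.5 CPM in the older ones (edgeR, adjusted p = 0.0555). Pate9 there is between 2110 and 4970 CPM. In the diet pool, whose mice are all of 3 months, Pate14 is between 315.5 and 3173 CPM and Pate9 between 1138 and 3503 CPM.

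Diet was not tested in prostate-like cells, because 1 mouse on the control diet had at least 10 of them. Pate9 stood at 1192 CPM in that mouse, at 1627 and 1548 CPM in the HF mice, at 3503 and 1646 CPM in the LP mice and at 1138 CPM in 1 restricted mouse. Pate14 stood at 471.4 CPM, 315.5 and 422.3 CPM, 3173 and 496.2 CPM, and 645.6 CPM in the same order. The mouse with the highest values of both genes was the LP mouse with the fewest such cells, 16.

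The 2 pools were compared in 4 values, by exact two-sided permutation tests on log2(CPM + 1) with adjustment over the 4. Pate9 in prostate-like cells was 0.93 higher on that scale in the aging pool (1.91-fold, medians of 3064 and 1588 CPM, p = 0.00932, adjusted p = 0.0373, exact permutation over 7 against 6 mice), where the smallest p the test allows is 0.00117. The difference in Pate4 of secretory cells was -0.12 (exact permutation p = 0.374), that in Pate14 of prostate-like cells -0.32 (p = 0.66 by the same permutation test), and that in the Pate9 share of the summed Pate9 and Pate14 UMIs 10.9 points (p = 0.162 by the same permutation test). In the mice of 3 months alone the difference was 0.63, with 2 against 6 mice, where the smallest p of the exact test is 0.0714 and no call was possible. The Pate9 call was lost with the stricter class limits (0.71, adjusted p = 0.208) and without 10 of the 13 mice in turn (adjusted p from 0.0606 to 0.0808). Strain, pool, food and age cannot be told apart in this comparison.

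Across 55 sums of mice and classes from 21 mice, the genes whose log2(CPM + 1) followed each member most closely were taken as the 5 of highest correlation. The sums of 1 mouse share a library, depth and free RNA, and the values are descriptions. For Pate4 these were Svs5 (r = 0.972), Svs2 (0.971), Svs4 (0.96), Bpgm (0.952), a red cell glycolytic enzyme, and Spinkl (0.949), of which the 3 Svs genes set the class limit. For Pate14 they were Svs6 (0.96), Ceacam10 (0.953), Spink1 (0.953), Svs3b (0.95) and Svs5 (0.947). For Pate9 they were Edem2 (0.963), Mccc2 (0.956), Tst (0.953), Dnajc10 (0.953) and Sdf2l1 (0.949), of which Edem2, Dnajc10 and Sdf2l1 encode proteins of folding and quality control in the endoplasmic reticulum. With the young and the old library added, none of these 5 remained in the list of Pate9, which then held Atp12a, Gsdma, Man1c1, Hid1 and Fgl1. Pate4 and Pate14 had r = 0.898 with each other, and Pate9 had r = -0.51 with Pate4 and -0.29 with Pate14.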

How the data were processed

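Single cells of seminal vesicle from 23 male mice were profiled by 10x Genomics 3′ sequencing. The authors deposited raw UMI counts per gene and cell, made with Cell Ranger 6.0.1 for the 18 pooled mice and 3.1.0 for the 5 single libraries per the file headers, and the submitters' processing notes name mm10 and Seurat. The mouse, and with it its diet, age or rapamycin, was read from the table names and sample tag tables of the pools, with ages from the study's list of animals.

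Genes were joined by Ensembl ID (30406 shared genes, of which 597, 10 Pate genes among them, carried another symbol in the single libraries), and 12 tag rows were left out. Of 53352 barcodes, 40342 with at least 500 genes, 200 UMIs and at most 10% mitochondrial UMIs were kept; the 1% mitochondrial limit stated by the study would leave 2615. No doublet caller was run, and the 18 cells that met both class limits were kept apart. Other cells were gated by marker UMIs. UMIs were summed per mouse and class, with at least 10 cells. Secretory cells numbered 15 to 206 per mouse in the aging pool, 16 to 124 in the diet pool and 2668 to 3022 in the single libraries.

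Diet (with pool or single library as a block), age in months and rapamycin were tested with edgeR 4.0.16 (quasi-likelihood, TMM, R 4.3.3) over all genes past its filter on low counts, with Benjamini-Hochberg adjustment and a threshold of 0.05, after a test on simulated data. Pools were compared by exact two-sided permutation over mice (scipy 1.17.1). P-values measure the spread between mice, and Poisson intervals and floors (3 counts) cover counting error only. Alternatives were DESeq2 1.42.0, other scalings, filters, class limits and sets of mice, a replicate block and each mouse left out. Leaving out each mouse in the pool comparisons, the gate without Cd52 and the split of other cells by Pate4 were added after the data had been seen.

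The members and gene lists were chosen with earlier results of these data known. Named genes were the members, the genes of the lists (Pate family, other Ly6/uPAR genes, neighbours of the locus, seminal vesicle products, prostate products, androgen response) and the 5 genes most like each member. Of the neighbours, 0 passed the filter in secretory cells and 1 in prostate-like cells, where it was not called. Coding sequences came from the GENCODE vM21 transcripts of GRCm38.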

Additional observations from a re-analysis of the deposited data

Results flagged for a closer look

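Among 18 groups of 6 to 10 mice, a single mouse stood far from the rest of its group in 4. The rule would pick out about 1 in 20 groups if values were normal and the mice of a group alike. Here the groups mix ages and rapamycin or diets and share the same mice, so the 4 are not read against that rate. Pate4 in secretory cells of the aging pool was lowest in an untreated mouse of 28 months, at 21805.9 CPM, against 31203.3 to 38257.7 CPM in the other 9 mice. Pate14 in other cells of the aging pool was highest in a rapamycin-treated mouse of 28 months, at 2320.75 CPM, against 504.7 to 1376 CPM. In prostate-like cells of the diet pool, 1 mouse on the low protein diet was highest for both Pate9, at 3502.71 CPM against 1138 to 1646 CPM, and Pate14, at 3173.47 CPM against 315.5 to 645.6 CPM. That mouse had 16 prostate-like cells.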

How the results depend on the processing

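Over 41 results and 671 alternatives, 570 kept their direction and side of the threshold or moved by less than the spread, 57 counts or values moved, 16 changed sign, 16 passed the threshold and 12 no longer did. Pate4 and Pate14 fell under caloric restriction in every alternative run, by 0.64 to 1.23 and 1.85 to 2.67. The count of genes called for restriction was 668 with library sizes without the Svs genes, 329 without a filter on low counts, 203 with DESeq2, 43 in the diet pool alone and 29 with each diet fitted with control only, and 50 to 156 with 1 mouse left out (76 without control mouse 1, 50 without control mouse 3 and 70 without high fat mouse 3). For HF it was 19 without the filter and 1 in the diet pool alone (0 to 1 with a mouse left out), and for LP 29 without the filter, 1 with the Svs limit at 45% and 1 with control only (0 to 3). The LP values of Pate4 and Pate14 ran from -0.0075 to 0.12 and from -0.0033 to 0.18 with a mouse left out. Their negative values came without control mouse 2 and without low protein mouse 3.

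In secretory cells the calls per month of age were 247 without the filter, 11 with DESeq2, 0 with 20 and 28 months against 3, 0 at Svs limits of 20 and 45%, and 0 to 12 with a mouse left out. For rapamycin they were 208, 9, 1, 0 and 3 to 10 in that order. Without the filter Pate14 passed for age (-0.037, adjusted p = 0.00189, edgeR) and rapamycin (0.556, adjusted p = 0.0369, edgeR). Pate4 for rapamycin ran from -0.148 to 0.15 with a mouse left out, below 0 without the untreated mouse 1 (-0.148) or the treated mouse 2 (-0.012) of 28 months. In prostate-like cells the calls per month were 1 with DESeq2 size factors, 124 without the filter, 22 with DESeq2, 1 without a mitochondrial limit and 0 to 20 with a mouse left out. For rapamycin they were 78 without the filter, 1 with DESeq2, 1 with the Tgm4 and Pbsn limit at 1%, and 0 to 7. Pate14 per month passed with DESeq2 size factors (-0.121), without the filter (-0.123), with DESeq2 (-0.124) and without a mitochondrial limit (-0.111), and ran from -0.137 to -0.1002 with a mouse left out. Pate4 per month was 0.0162 without the untreated mouse of 28 months (lowest -0.0918), and for rapamycin 0.334 with the limit at 1% and 0.0373 with cells of both limits counted.

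Between the pools, the mice of 3 months alone gave 0.059 for Pate4, 0.629 for Pate9, 1.24 for Pate14 and -8.52 points for the Pate9 share, with too few mice for a call in prostate-like cells. With cells of both limits counted, Pate14 gave 0.543 and the share -0.535. With limits of 45 and 1%, Pate9 gave 0.707 and Pate14 0.157, and with limits of 20 and 0.2% Pate14 gave 0.0937. With a mouse left out Pate9 ran from 0.819 to 1.15 and Pate14 from -0.5996 to 0.149, with 0.00958 without the untreated mouse of 28 months and 0.149 without low protein mouse 1. Without the Svs genes in the total, median secretory levels were 91182 CPM for Pate4 and 78895.8 CPM for Pate14. The cause of these changes was not tested.

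Same-numbered mice correlated in their deviations from group means at -0.0294 to 0.331 in the diet pool (5 of 12 pairs over 0.1). The values were -0.203 to 0.0863 in the age fit and 0.0374 in prostate-like cells. The means of control, HF and LP included the single libraries, which shifts pooled mice of these diets together. In the age fit, groups of 2 mice make the values of numbers 1 and 2 mirror each other. Whether numbers 1 and 2 pair the mice is therefore not settled by these values. The mice numbered 3 are the single libraries (0.61 to 0.697), a set that is already a block in the diet fit. With the replicate block 129 genes were called for restriction, 4 for age and 4 for rapamycin in secretory cells, and no member's call changed. Diet in prostate-like cells was not run under any alternative, with 1 control mouse of at least 10 cells.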

Other observations

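Pate6, the main Pate gene of the young and the old library, split the secretory cells of the aging pool by mouse. It stood between 1321 and 1888 CPM in 6 mice and between 121.1 and 186.3 CPM in the other 4. The higher values came from 1 mouse of 3 months, 3 of 20 months and 2 of 28 months, and the lower ones from 1, 1 and 2 mice of these ages, so that every age held both. The FVB/NJ mice ran from 185.8 to 455.2 CPM. The summed epididymis markers stood between 150.6 and 505.7 CPM in the secretory cells of the aging pool, and their part in the Pate6 values was not tested. In the fit for age and rapamycin Pate6 was not called (adjusted p = 1.00 and 0.939, edgeR).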
